A study of Mus musculus with 6 samples.

Results

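The BCL2 family genes examined here are 10 regulators of mitochondrial cell death, chosen by symbol, out of 24015 gene symbols counted in developing T cells of the mouse. All 10 were found and all 10 carried enough reads to be tested. The cells were DN3 thymocytes, sorted from the thymus by the absence of lineage markers, CD4 and CD8, by low CD44 and by high CD25, the stage at which the T cell receptor beta locus is rearranged. There were 3 groups of 2 libraries. The Tcf1-deficient group was Lck-cre+ Tcf1 fl/fl, in which Cre driven by the T-lineage Lck promoter is meant to remove all Tcf1 proteins by deleting a conditional allele. The p45-deficient group was p45-/-, lacking the long isoforms of Tcf1, the transcription factor encoded by Tcf7, and keeping the short ones. The control group was labelled wild type. The labels give neither age nor sex, and they do not say whether 2 libraries of a genotype are different mice. The p-values therefore measure spread between libraries that could be technical, and the wild-type label names no Cre.

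BCL2 family proteins decide whether the outer membrane of the mitochondrion is kept intact. Pro-survival members (Bcl2, Bcl2l1 or BCL-XL, Bcl2l2 or BCL-W, and Mcl1) hold the effectors Bax and Bak1 in check, and BH3-only proteins (Bcl2l11 or BIM, Bid, Bmf, and Bbc3 or PUMA) block the survival proteins or activate the effectors. Once the effectors open pores, cytochrome c leaves the mitochondrion and caspases are switched on. In the thymus Mcl1 and Bcl2 keep early thymocytes alive under interleukin 7, Bcl2l1 protects the later double-positive cells, and Bcl2l11 is needed for negative selection.

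Library totals ran from 19640524 to 28107031 counts, so that 3 counts in a library corresponded to 0.11 to 0.145 CPM, the library-scaled count used below, with library sizes adjusted by TMM. Tcf7 stood at 979 and 976 CPM in Tcf1-deficient libraries, 2340 and 2414 CPM in p45-deficient libraries and 2088 and 1810 CPM in control libraries, and counts per gene do not separate its isoforms or the deleted part, so the extent of the deletion was not measured. Its log2 fold change was −0.995 in Tcf1-deficient against control cells (SE 0.11, adjusted p = 0.0762 by edgeR), and no gene had a smaller adjusted p in that comparison. All 11 DN3 markers were detected in every library, with Il2ra (the CD25 chain) at 923 to 1991 CPM and Ptcra at 97.3 to 299 CPM. Their sum was lowest in Tcf1-deficient replicate 1, at 8363 CPM against 10210 to 12347 CPM in the other libraries. Among genes of later T cells, Tcf1-deficient replicate 1 stood apart, with Cd4 at 372 CPM against 46.1 to 86.5 CPM in the other libraries and Ccr7 at 123 CPM against 8.94 to 20.9 CPM, and its 7 marker genes of double-positive and mature T cells summed to 1200 CPM against 495 to 704 CPM. B cell markers (7 genes) summed to 19.9 and 29.6 CPM in Tcf1-deficient, 16.3 and 13.9 CPM in p45-deficient and 36.3 and 28.7 CPM in control libraries, and Pax5 was at 0 in all libraries but control replicate 1. Myeloid and dendritic markers (9 genes) summed to 133 and 27.1 CPM in Tcf1-deficient, 32.6 and 33.7 CPM in p45-deficient and 132 and 60.5 CPM in control libraries. Immediate-early and heat-shock genes split the controls, with a summed level of 3372 and 4103 CPM in Tcf1-deficient, 764 and 736 CPM in p45-deficient and 1006 and 4027 CPM in control libraries.

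The windows just before the transcription starts of 6 members are shown because 4 of these genes (Bid, Bcl2l2, Bmf and Bbc3) gave the called differences, Bax holds the only TCF/LEF core among the members' windows, and Bcl2l11 holds a FOXO word as does Bbc3. Each is taken from RefSeq promoter windows of the 250 bases before a start on GRCm38.p6, cut to the longest stretch without an annotated GENCODE M21 exon, and is given 5′ to 3′ along the gene. Capitals mark the words found on either strand, namely the TCF/LEF core CTTTGA, the E-box CANNTG and the FOXO word GTAAACA, which reads TGTTTAC on the other strand.
Bid, chr6:120916854-120917074, minus strand: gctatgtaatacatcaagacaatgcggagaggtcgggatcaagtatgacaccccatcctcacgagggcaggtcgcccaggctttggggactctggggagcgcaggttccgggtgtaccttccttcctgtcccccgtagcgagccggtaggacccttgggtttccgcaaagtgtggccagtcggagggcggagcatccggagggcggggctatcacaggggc
Bcl2l2, chr14:54883175-54883376, plus strand: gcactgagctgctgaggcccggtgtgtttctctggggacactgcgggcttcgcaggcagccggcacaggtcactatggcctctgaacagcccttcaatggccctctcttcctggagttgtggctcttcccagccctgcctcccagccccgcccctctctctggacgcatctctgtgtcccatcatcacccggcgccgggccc
Bmf, chr2:118549688-118549936, minus strand: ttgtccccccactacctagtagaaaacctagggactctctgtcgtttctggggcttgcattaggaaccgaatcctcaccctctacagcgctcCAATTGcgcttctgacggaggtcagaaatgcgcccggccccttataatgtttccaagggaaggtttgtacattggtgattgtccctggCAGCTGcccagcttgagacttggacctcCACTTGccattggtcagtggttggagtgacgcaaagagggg
Bbc3, chr7:16310011-16310260, plus strand: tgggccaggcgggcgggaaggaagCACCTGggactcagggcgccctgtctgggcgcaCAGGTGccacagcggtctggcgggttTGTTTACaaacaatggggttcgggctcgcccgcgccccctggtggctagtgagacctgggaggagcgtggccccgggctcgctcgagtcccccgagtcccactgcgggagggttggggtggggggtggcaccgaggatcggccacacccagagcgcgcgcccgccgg
Bax, chr7:45466899-45467148, minus strand: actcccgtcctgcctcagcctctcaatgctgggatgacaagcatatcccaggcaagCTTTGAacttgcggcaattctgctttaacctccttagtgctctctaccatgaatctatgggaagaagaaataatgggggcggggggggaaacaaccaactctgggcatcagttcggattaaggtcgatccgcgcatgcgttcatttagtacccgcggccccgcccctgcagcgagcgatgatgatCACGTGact
Bcl2l11, chr2:128125788-128126037, plus strand: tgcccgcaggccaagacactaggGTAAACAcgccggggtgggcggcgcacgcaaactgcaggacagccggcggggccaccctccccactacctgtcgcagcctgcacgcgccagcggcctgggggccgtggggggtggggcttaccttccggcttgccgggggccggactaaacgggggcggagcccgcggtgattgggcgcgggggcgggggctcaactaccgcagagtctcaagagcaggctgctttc

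All 10 members had at least 1 window, 17 in total. CTTTGA stood in 1 of the 17, the Bax window, beside 13.8% of 32851 RefSeq windows of the same length. GTAAACA stood in 2 of the 17, beside 3.17% of all windows, and the STAT word TTCNNNGAA in 0 of the 17, beside 7.02%. E-boxes, bound by the E proteins of early T cells, stood in 10 of the 17 windows, beside 66.2% of all windows, with 3 in the Bmf window shown. None of these words stood in the Bid and Bcl2l2 windows. The Bax and Bcl2l11 windows shown lie outside the annotated span of their own gene, and the other 4 touch theirs. Introns of other genes were not checked. Windows of 1 gene can overlap, and a word in a window is not a binding site.

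Setting p45-deficient against control cells addresses the contribution of the long isoforms. Bid, a BH3-only protein that caspase 8 and granzyme B cut into its active form, rose 2.13-fold, while Bmf, Bbc3 and the survival gene Bcl2l2 fell. These were 1 rise and 3 falls among 10 members at an adjusted p below 0.05 in edgeR's quasi-likelihood test, and 5 members had an unadjusted p below 0.05. Over all 12939 tested genes the share called was 16.0%, with 8.47% higher and 7.55% lower, and 33.8% had an unadjusted p below 0.05. The members' median log2 fold change was −0.082, beside 0.046 over all tested genes.

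Among the pro-survival genes, Bcl2l2 stood at 14.0 and 10.4 CPM in p45-deficient libraries, against 28.1 and 21.4 CPM in control libraries. Both p45-deficient libraries lay below both controls, and the log2 fold change was −1.02 (SE 0.24, adjusted p = 0.0297). Mcl1, whose short-lived protein is a main guard of immature thymocytes, stood at 241 and 234 CPM in p45-deficient libraries, against 259 and 415 CPM in control libraries. The groups did not overlap, but one control lay close to the p45-deficient libraries, and the log2 fold change of −0.51 was not called (SE 0.22, 95% interval −1.02 to 0.01, adjusted p = 0.154). Bcl2, the founding member, stood at 164 and 179 CPM in p45-deficient libraries, against 150 and 240 CPM in control libraries. The controls enclosed both p45-deficient libraries (log2 fold change −0.19, SE 0.21, adjusted p = 0.568). Bcl2l1 stood at 41.1 and 41.5 CPM in p45-deficient libraries, against 34.3 and 37.4 CPM in control libraries, and edgeR gave a log2 value of 0.20 (SE 0.27, adjusted p = 0.643).

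Among the BH3-only genes, Bid stood at 71.4 and 89.0 CPM in p45-deficient libraries, against 41.7 and 33.7 CPM in control libraries. The groups were far apart (log2 fold change 1.09, SE 0.17, adjusted p = 0.00857). Bmf, which in healthy cells is tethered to the cytoskeleton through a dynein light chain, stood at 40.8 and 41.7 CPM in p45-deficient libraries, against 71.4 and 85.8 CPM in control libraries. It fell by 0.93 on the log2 scale (SE 0.16, adjusted p = 0.0133). Bbc3, a p53 target that binds every survival protein of the family, stood at 5.44 and 5.51 CPM in p45-deficient libraries, against 15.2 and 9.92 CPM in control libraries. Its log2 fold change was −1.20 (SE 0.29, adjusted p = 0.0352), from 115 to 315 counts per library. Bcl2l11 stood at 103 and 101 CPM in p45-deficient libraries, against 64.3 and 137 CPM in control libraries. The controls lay on either side of the p45-deficient libraries, so no direction could be read (log2 fold change 0.02, SE 0.33, adjusted p = 0.968).

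Neither effector passed the test. Bak1 stood at 98.8 and 102 CPM in p45-deficient libraries, against 83.9 and 77.8 CPM in control libraries. These groups did not overlap (log2 fold change 0.31, SE 0.12, adjusted p = 0.107). Bax stood at 84.5 and 82.1 CPM in p45-deficient libraries, against 72.2 and 58.2 CPM in control libraries, and edgeR gave a log2 value of 0.35 (SE 0.17, adjusted p = 0.196). In all, the libraries did not overlap for 4 members that were higher and 4 that were lower in p45-deficient cells, beside 37.9% and 31.3% of all tested genes, 69.3% together.

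**Figure D1:**
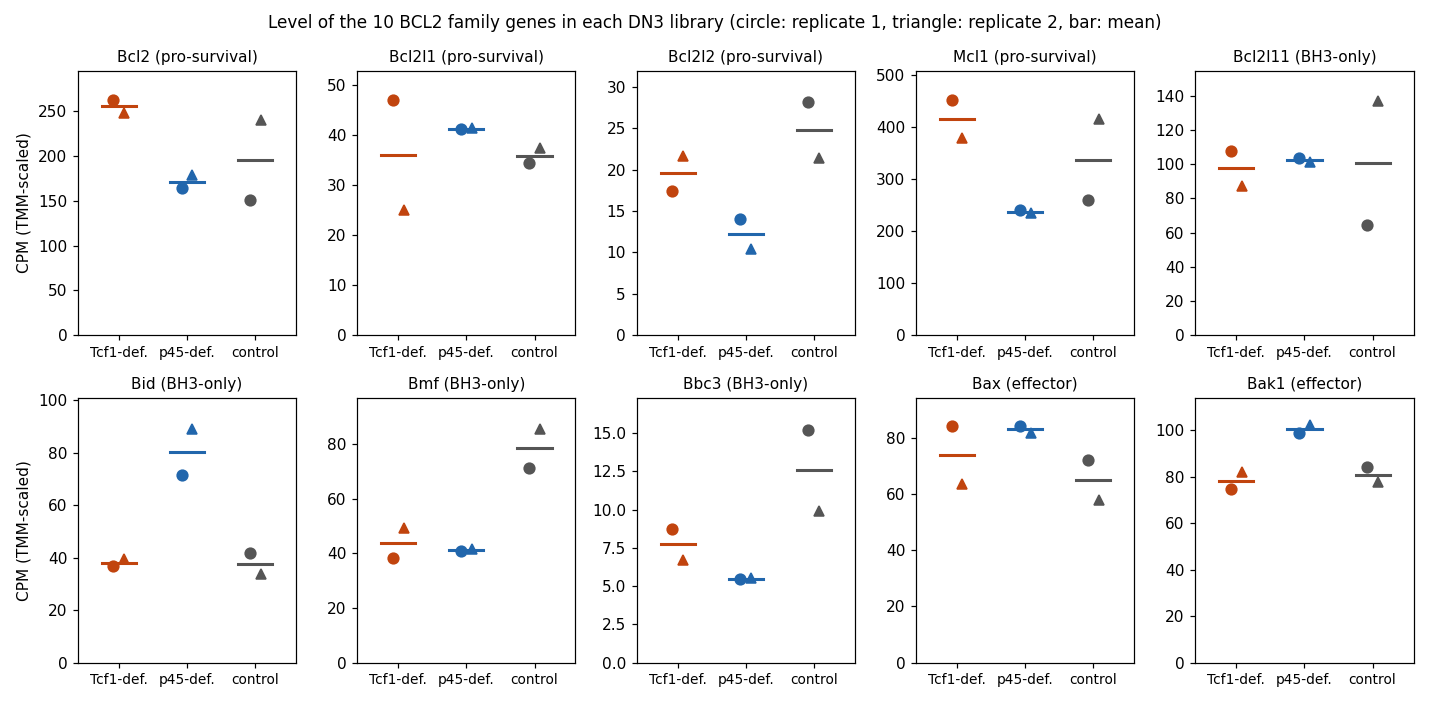
Level of each of the 10 genes in CPM (vertical axis, from 0) in the 2 libraries of each group, with the mean as a bar. Bid is highest in both p45-deficient libraries, Bmf and Bbc3 are lower in all 4 mutant libraries than in both controls, and the 2 controls lie far apart for Bcl2, Mcl1 and Bcl2l11.

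Each of the 4 calls depended on single libraries. Without control replicate 2 none of the 4 was called, with an adjusted p of 0.0659 for Bid, 0.0706 for Bmf, 0.0644 for Bcl2l2 and 0.0597 for Bbc3. None was called without p45-deficient replicate 2 either, and without p45-deficient replicate 1 Bid alone was. Without control replicate 1 Bid and Bmf were called, but Bcl2l2 (adjusted p = 0.162) and Bbc3 (adjusted p = 0.202) were not, while Mcl1 was called lower (log2 fold change −0.86, adjusted p = 0.047). The directions of these 4 genes held in all 13 alternatives, with log2 fold changes of 0.89 to 1.25 for Bid, −1.11 to −0.85 for Bmf, −1.26 to −0.82 for Bcl2l2 and −1.53 to −0.91 for Bbc3.

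Genes of dividing cells moved with Bid. The summed level of 14 such genes was 5860 and 6055 CPM in p45-deficient libraries, against 3761 and 3364 CPM in control libraries, and 9 of the 14 rose. Of 9 natural killer and gamma-delta genes, 8 were tested and 3 rose (Gzma, Cd163l1 and Blk), with sums, mostly Gzma and Cd163l1, of 1315 and 1175 CPM in p45-deficient libraries, against 312 and 312 CPM in control libraries. The gamma-delta gene Sox13 (log2 fold change −0.17, adjusted p = 0.386) and the cytotoxic gene Nkg7 (−0.42, adjusted p = 0.259) were not called. Nkg7 stood at 21.4 to 65.3 CPM over the 6 libraries and Klrb1c at 0.287 to 0.967 CPM, and Ncr1 was at 0 in all libraries but control replicate 1. Markers of B cells and of myeloid and dendritic cells had lower sums in both p45-deficient libraries than in both controls. Bcl2l2, Bmf and Bbc3 were lower there as well. The B cell sums were mostly Cd79b, and the myeloid and dendritic sums mostly Cd74, H2-Aa, H2-Ab1 and H2-Eb1. Of these markers, 4 of 7 B cell genes were tested and 1 fell (Cd79a, adjusted p = 0.0393), and 8 of 9 myeloid and dendritic genes were tested and 0 fell. In that second list Itgam (log2 fold change 0.99, adjusted p = 0.374 by edgeR) and Csf1r (0.12, adjusted p = 0.957) had positive values. The other tested genes of the list had negative values, also without a call. The part of cell division or of these other cell types in the Bid, Bmf, Bbc3 and Bcl2l2 differences was not tested. In bulk samples, fewer cells of a type and less RNA per cell cannot be told apart. The exons of Bid overlap those of Bcl2l13 on the opposite strand over 628 bases in GENCODE M21, and the strand setting of the counts is not given in the sources used here. Bcl2l13 stood at 108 and 115 CPM in p45-deficient libraries, against 92.6 and 90.9 CPM in control libraries (log2 fold change 0.28, adjusted p = 0.122). Exons of Bak1 likewise overlap those of Ggnbp1, which was at 0.956 and 0.862 CPM in p45-deficient libraries, against 3 and 2.63 CPM in control libraries.

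Setting Tcf1-deficient against control cells addresses the deletion designed to remove all Tcf1 proteins. None of the 10 members passed edgeR's test, and neither did any of the 12939 tested genes (0% called). At an unadjusted p below 0.05, the same test gave 2 members, Bmf and Bbc3, beside 7.91% of all tested genes (4.30% higher and 3.61% lower). At an adjusted p below 0.05, DESeq2 called 79 of the 12939 genes higher and 66 lower, with 1 member, Bmf, among them. DESeq2 gave no adjusted p for 1004 genes. Bmf stood at 38.3 and 49.4 CPM in Tcf1-deficient libraries, against 71.4 and 85.8 CPM in control libraries. The groups did not overlap, the log2 fold change was −0.84 (SE 0.16, 95% interval −1.23 to −0.46) and the adjusted p was 0.286. By DESeq2 it had an adjusted p of 0.00346, and by edgeR without Tcf1-deficient replicate 2 an adjusted p of 0.0079, while the other alternatives ran up to an adjusted p of 1. Bbc3 stood at 8.75 and 6.70 CPM in Tcf1-deficient libraries, against 15.2 and 9.92 CPM in control libraries (log2 fold change −0.70, SE 0.29, adjusted p = 0.626).

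Bid, in contrast to its level in p45-deficient cells, stood at 36.8 and 39.4 CPM in Tcf1-deficient libraries, against 41.7 and 33.7 CPM in control libraries. The log2 fold change was 0.02 with a 95% interval of −0.37 to 0.41. Bcl2 was the only member whose Tcf1-deficient libraries both lay above the controls, at 262 and 248 CPM in Tcf1-deficient libraries, against 150 and 240 CPM in control libraries (log2 fold change 0.39, SE 0.21, adjusted p = 0.682). Mcl1 stood at 451 and 379 CPM in Tcf1-deficient libraries, against 259 and 415 CPM in control libraries, and Bcl2l11 at 108 and 87.4 CPM in Tcf1-deficient libraries, against 64.3 and 137 CPM in control libraries. For both genes the groups overlapped. Bcl2l1 stood at 46.9 and 25 CPM in Tcf1-deficient libraries, against 34.3 and 37.4 CPM in control libraries, which lay between them. The library with the higher Bcl2l1 level, Tcf1-deficient replicate 1, is the one with the high Cd4 and Ccr7 levels, and the part of later T cells in its Bcl2l1 level was not tested. Bcl2l2 stood at 17.4 and 21.7 CPM in Tcf1-deficient libraries, against 28.1 and 21.4 CPM in control libraries. The effectors overlapped too. Bax stood at 84.5 and 63.7 CPM in Tcf1-deficient libraries, against 72.2 and 58.2 CPM in control libraries. Bak1 stood at 74.5 and 81.8 CPM in Tcf1-deficient libraries, against 83.9 and 77.8 CPM in control libraries. In this comparison 1 member had non-overlapping libraries on the higher side and 2 on the lower side, beside 16.4% and 18.0% of all tested genes, 34.4% together.

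Setting Tcf1-deficient against p45-deficient cells bears on the short isoforms, which p45-deficient cells keep. The mutants also differ in Cre and in the kind of allele, which is conditional in Tcf1-deficient cells only. The extent of that deletion was not measured. These differences cannot be told apart from loss of the short isoforms. Bid was the 1 member called, lower in Tcf1-deficient cells (log2 fold change −1.07, SE 0.17, adjusted p = 0.0136), where 10.4% of all tested genes were called, 5.05% higher and 5.36% lower. At an unadjusted p below 0.05 there were 5 members, beside 31.1% of all tested genes. The call was lost without p45-deficient replicate 1 (adjusted p = 0.0582) or p45-deficient replicate 2 (adjusted p = 0.102). Dividing cell genes differed in the same direction, with 9 of 14 lower in Tcf1-deficient cells and sums of 3057 and 4155 CPM in Tcf1-deficient libraries, against 5860 and 6055 CPM in p45-deficient libraries. Of the natural killer and gamma-delta genes 2 were higher (Nkg7 and Sox13) and 3 lower (Gzma, Cd163l1 and Blk), with sums of 528 and 612 CPM in Tcf1-deficient libraries, against 1315 and 1175 CPM in p45-deficient libraries. Among the 11 DN3 markers, 2 were lower (Ptcra, adjusted p = 0.0215, and Rag1, adjusted p = 0.032, by edgeR), 0 were higher and 9 were not called.

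The pro-survival genes Mcl1, Bcl2 and Bcl2l2 were higher in both Tcf1-deficient libraries than in both p45-deficient libraries, but none was called. For Mcl1 the log2 fold change was 0.81 (SE 0.22, 95% interval 0.29 to 1.32, adjusted p = 0.0598), and it was called in 7 of 13 alternatives, with values of 0.73 to 0.91. For Bcl2 it was 0.57 (SE 0.21, adjusted p = 0.115) and for Bcl2l2 0.68 (SE 0.23, adjusted p = 0.103). Bak1 was lower without a call (log2 fold change −0.36, SE 0.12, adjusted p = 0.087). Non-overlapping libraries were found for 4 members on the higher side and 2 on the lower side, beside 27.7% and 33.3% of all tested genes, 61.0% together. The comparisons of each mutant with control share the control libraries, and the last comparison reuses both mutant groups, so the 3 sets of values are not independent.

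**Figure D2:**
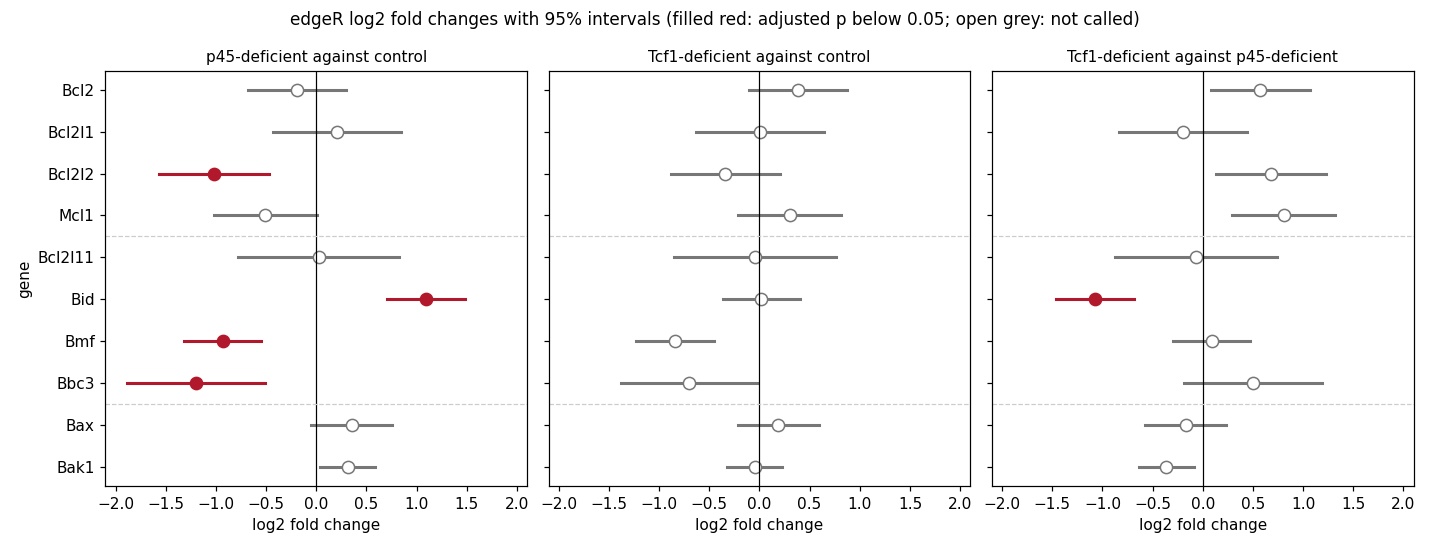
edgeR log2 fold change (horizontal axis) of each member with its 95% interval, in 3 panels by comparison, with dashed lines between survival, BH3-only and effector genes. Filled red points (4 in the first panel, 0 in the second, 1 in the third) passed an adjusted p of 0.05, and Bmf lies at −0.93 and −0.84 in the first 2 panels, with only the first called.

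Control libraries themselves differed most for 3 members. Between control replicates 2 and 1 the log2 difference was 1.08 for Bcl2l11, 0.68 for Mcl1 and 0.67 for Bcl2, all higher in replicate 2, and 1.97%, 6.94% and 7.23% of tested genes differed by at least as much. Bmf was higher there as well (log2 difference 0.26), while Bbc3 (−0.59), Bcl2l2 (−0.39), Bax (−0.31) and Bid (−0.30) were lower. In p45-deficient cells the same 3 genes differed by 0.13 at most. Over the 6 libraries Mcl1 and Bcl2 fell into 3 high and 3 low libraries. The high ones were both Tcf1-deficient libraries and control replicate 2, at 379 to 451 CPM of Mcl1 and 240 to 262 CPM of Bcl2. The low ones were both p45-deficient libraries and control replicate 1, at 234 to 259 CPM of Mcl1 and 150 to 179 CPM of Bcl2. The immediate-early genes divided the libraries in the same way, at 3372 to 4103 CPM and 736 to 1006 CPM, and their part in the Mcl1 and Bcl2 levels was not tested.

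**Figure D3:**
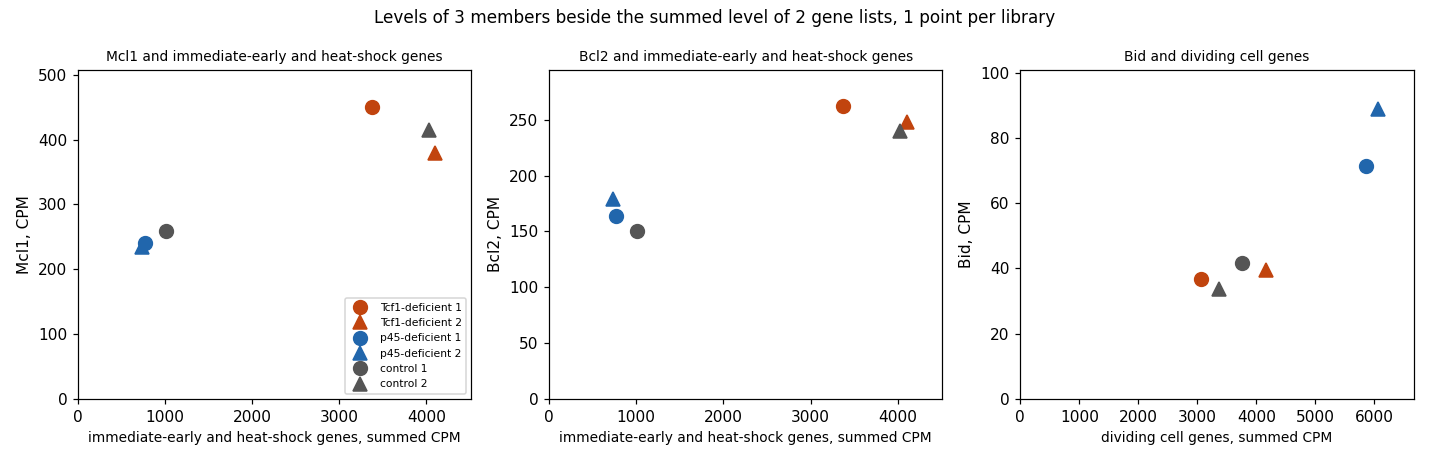
Level of Mcl1, Bcl2 and Bid (vertical axes, CPM) beside the summed level of immediate-early and heat-shock genes or of dividing cell genes (horizontal axes, summed CPM), 1 point per library. Mcl1 and Bcl2 are high in the 3 libraries with 3372 CPM or more of immediate-early genes, and Bid is above 71 CPM only in the 2 p45-deficient libraries, which hold 5860 and 6055 CPM of dividing cell genes.

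Ratios of read counts within a library do not depend on how libraries are scaled, and they are given as a description with no test. The ratio of Bid to Bcl2 was 0.14 and 0.159 in Tcf1-deficient, 0.436 and 0.497 in p45-deficient and 0.277 and 0.14 in control libraries. The ratio of Bak1 to Mcl1 was 0.165 and 0.216 in Tcf1-deficient, 0.41 and 0.437 in p45-deficient and 0.324 and 0.187 in control libraries. For both ratios the p45-deficient libraries were the highest of the 6, and the controls were far apart. The ratio of Bcl2l11 to Mcl1 was 0.239 and 0.23 in Tcf1-deficient, 0.429 and 0.434 in p45-deficient and 0.248 and 0.329 in control libraries. Both controls lay below both p45-deficient libraries in this ratio, although the Bcl2l11 level itself did not separate them. The ratio of Bcl2l11 to Bcl2 overlapped between p45-deficient libraries (0.631 and 0.567) and control libraries (0.428 and 0.57), and was 0.411 and 0.353 in Tcf1-deficient libraries. The ratio of Bax to Bcl2 was 0.322 and 0.257 in Tcf1-deficient, 0.517 and 0.458 in p45-deficient and 0.48 and 0.242 in control libraries, and there too the p45-deficient and control libraries overlapped.

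**Figure D4:**
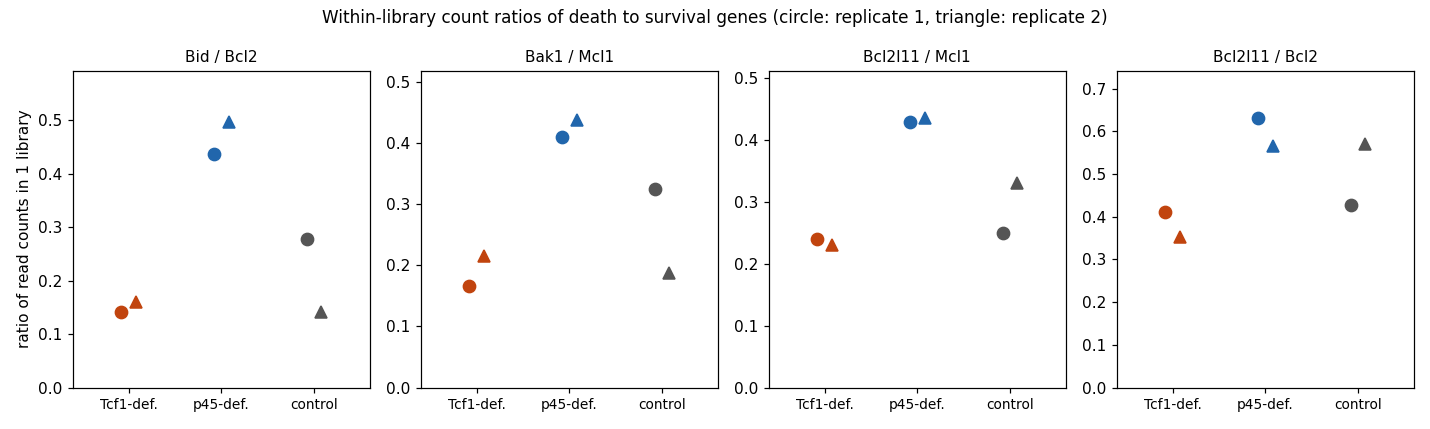
Ratio of the read counts of 2 members in the same library (vertical axes, from 0), for 4 of the 5 pairs of a death gene over a survival gene that were computed, the ratio of Bax to Bcl2 being given in the text. Both p45-deficient libraries have the highest ratios of Bid to Bcl2, Bak1 to Mcl1 and Bcl2l11 to Mcl1, and Tcf1-deficient libraries lie between 0.14 and 0.411 in the 4 panels.

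To order the members, CPM was divided by exon length in kilobases, from GENCODE M21 transcripts paired with a RefSeq mRNA, which may differ from the gene models used for counting. On this scale Mcl1 was at 132 and 111 in Tcf1-deficient, 70.5 and 68.4 in p45-deficient and 75.7 and 122 CPM per kb in control libraries. Bax was at 97.5 and 73.5 in Tcf1-deficient, 97.5 and 94.6 in p45-deficient and 83.3 and 67.1 CPM per kb in control libraries. These were the highest pair of members in every library. Their ranges overlapped, so neither is placed above the other. Bak1 followed at 31.2 to 42.8 CPM per kb over the 6 libraries, Bid at 15.4 to 40.7, Bcl2 at 16.4 to 28.7, Bcl2l11 at 9.32 to 19.9, Bcl2l1 at 9.27 to 17.4 and Bmf at 7.93 to 17.8 CPM per kb, each range overlapping the next. Bcl2l2 at 2.96 to 8.02 and Bbc3 at 3 to 8.4 CPM per kb were the lowest. Summed on this scale, the 4 survival genes reached 183 and 154 in Tcf1-deficient, 108 and 106 in p45-deficient and 113 and 168 CPM per kb in control libraries. The 4 BH3-only genes summed to 45.2 and 44.6 in Tcf1-deficient, 59.0 and 67.0 in p45-deficient and 51.5 and 58.5 CPM per kb in control libraries. The p45-deficient libraries had the lowest survival sums, with control replicate 1 close to them. Their BH3-only sums were the highest through Bid, which made up 32.6 and 40.7 CPM per kb of them, and control replicate 2 was close. Gene by gene, the BH3-only genes had a median log2 fold change of −0.45 in p45-deficient against control cells, with 2 lower and 1 higher. mRNA levels do not measure the proteins or their binding.

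Of 16 further genes of the BCL2 family, 9 carried enough reads to be tested. Between p45-deficient and control cells 1 fell, 0 rose and 8 were not called, with a median log2 fold change of 0.125 beside 0.046 over all tested genes. The one that fell was Bnip3, a hypoxia-induced gene of mitochondrial removal, at 0.294 and 0.718 CPM in p45-deficient libraries, against 2.66 and 2.98 CPM in control libraries, a low level (log2 fold change −2.49, SE 0.64, adjusted p = 0.0398). Dropping any single control or p45-deficient library ended that call. Neither other comparison had a call in this list. Pmaip1 (NOXA), a BH3-only partner of Mcl1, stood at 10.02 and 10.24 CPM in Tcf1-deficient, 3.9 and 6.37 CPM in p45-deficient and 2.42 and 6.83 CPM in control libraries (log2 fold change 1.12, SE 0.49, adjusted p = 0.628 for Tcf1-deficient against control). Bcl2a1a, Bcl2a1c and Bcl2l10 had 0 counts in all 6 libraries, and the Bcl2a1 genes are near-identical copies whose reads may not be assigned.

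Downstream of the mitochondrion, 2 of 15 genes rose in p45-deficient cells, 0 fell and 13 were not called, where 16.0% of all tested genes were called. Cycs, cytochrome c, stood at 240 and 240 CPM in p45-deficient libraries, against 139 and 159 CPM in control libraries (log2 fold change 0.69, SE 0.13, adjusted p = 0.017). Apaf1 and Casp9, which form the apoptosome with cytochrome c, were not called in any comparison. Dropping any single control or p45-deficient library left 1 rise in p45-deficient cells.

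Among 18 genes whose products act on BCL2 family proteins, 3 rose in p45-deficient cells, 2 fell and 13 were not called, with a median log2 fold change of 0.168 beside 0.046 over all tested genes, of which 16.0% were called. Casp8, the protease that cuts Bid, stood at 130 and 119 CPM in p45-deficient libraries, against 59.8 and 70.7 CPM in control libraries (log2 fold change 0.93, SE 0.17, adjusted p = 0.0142). Mtch2, the mitochondrial receptor of cut Bid, stood at 73.8 and 80.0 CPM in p45-deficient libraries, against 52.3 and 51.9 CPM in control libraries (log2 fold change 0.56, SE 0.13, adjusted p = 0.0304). The channel gene Vdac3 also rose, 1.64-fold. Huwe1, a ubiquitin ligase that targets Mcl1, stood at 645 and 685 CPM in p45-deficient libraries, against 1053 and 903 CPM in control libraries (log2 fold change −0.56, SE 0.15, adjusted p = 0.0422), and the co-chaperone gene Bag3 fell too. Against p45-deficient cells, Mtch2 (log2 fold change −0.53) and Vdac3 (−0.66) were the 2 called in Tcf1-deficient cells, both lower. None of the 18 was called in either direction in p45-deficient against control cells when any single library of those groups was dropped, whereas dropping Tcf1-deficient replicate 1 or 2 gave 5 or 7 higher. Between the mutants the count of lower genes was 0 without any single library but Tcf1-deficient replicate 2, where it was 5.

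Of 21 tested upstream regulators, 1 rose in p45-deficient cells, 3 fell and 17 were not called, with a median log2 fold change of −0.248 beside 0.046 over all tested genes. Calls in these lists are to be read against the 16.0% of all tested genes called in p45-deficient against control cells. Foxo3, a transcription factor known to drive Bcl2l11 and Bbc3, stood at 57.1 and 56.4 CPM in p45-deficient libraries, against 91.3 and 107 CPM in control libraries (log2 fold change −0.80, SE 0.13, adjusted p = 0.00927). Stat5a, which carries the interleukin 7 signal to Bcl2 and Mcl1, fell by 0.55 on the log2 scale (SE 0.11, adjusted p = 0.0185) and Rela, a subunit of NF-kappaB, by 0.55 (SE 0.11, adjusted p = 0.0196). The gene that rose was Lef1, the relative of Tcf7. Il7r, the interleukin 7 receptor, stood at 95.6 and 92.4 CPM in p45-deficient libraries, against 95.9 and 93.7 CPM in control libraries. Against p45-deficient cells, Tcf1-deficient cells had 3 of the 21 higher (Foxo3, Rela and the cytokine receptor kinase gene Jak3) and 2 lower (Lef1 and Tcf7), and Foxo3 was at 88.8 and 95.6 CPM in Tcf1-deficient libraries. Without any one control or p45-deficient library, 0 to 2 of the 21 fell in p45-deficient cells and 1 rose, and without either Tcf1-deficient library 8 fell and 3 rose. Between the mutants the counts ranged over 0 to 7 higher and 1 to 3 lower. In Tcf1-deficient against control cells no gene of these 4 lists was called by edgeR, whereas without Tcf1-deficient replicate 2 the same test called 5 upstream regulators higher and 2 lower, and at most 1 gene in each direction in each of the other lists.

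Genes among those with the most similar pattern to each called member were found over the 6 libraries among 9808 genes with at least 5 CPM on average, and are named as a description only, since libraries of 1 genotype resemble each other. For Bid these were Mef2a, Cmc2 and Pmf1, for Bmf Soat1, Vegfa and Rps6kl1, for Bbc3 Hivep1 and Cc2d1a, and for Bcl2l2 Gnaq and Itgb4. Pearson's r of log2 CPM was 0.98 or more in each, and 99 to 919 genes had an r over 0.9 with a given member.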

How the data were processed

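RNA from sorted DN3 thymocytes was sequenced in 6 libraries, grouped by the genotype in their labels. Per the submitters' processing notes, TopHat2, featureCounts 1.5.0-p3 and DESeq2 3.4 were named, with genome build mm9 and no roles given. The deposited files hold raw read counts per gene symbol as the authors counted them. Neither the annotation nor the strand setting is given in the sources used here.

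Counts were filtered with filterByExpr (12939 genes left), scaled by TMM and tested with edgeR 4.0.16 in R 4.3.3, with 1 mean per group over all 6 libraries, robust quasi-likelihood F tests (two-sided) and Benjamini-Hochberg adjustment over all tested genes at 0.05. The fit has 3 residual degrees of freedom. With 2 libraries a group an exact permutation test cannot go below p = 0.333, so none was run. Means, SEs and intervals cover the spread between libraries, and the floor of 3 counts covers counting error only. Libraries of 1 group differed beyond counting noise (chi-square per degree of freedom 77.1 for Tcf1-deficient, 10.1 for p45-deficient, 40.3 for control), and each was treated as its own replicate. Such a spread does not show that the libraries come from different mice. In simulated data, 66 or 67 genes were changed by each fold, and each gene had the same spread in all groups. Across the comparisons, the tests called 7.46% to 10.4% of 1.5-fold changes and 55.2% to 58.2% of 2-fold changes. Of 4-fold changes they called 84.8% to 89.4%. The measured libraries differed in spread between groups, and the share of genes called ran from 0% to 16.0% by comparison, so these rates may not hold there. Tcf7, 1.99-fold lower in Tcf1-deficient against control cells, was not called. A change of 2-fold or less could therefore often go uncalled.

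Named genes are the 10 members, up to 5 called genes of each of 4 pathway lists per comparison, the 3 genes most alike each called member, and Tcf7. Pmaip1, Il7r, Apaf1, Casp9, the genes at 0 and single markers are given outside this rule, after their values were seen. A few genes that this rule names are not reported here. The members and lists were chosen with earlier results of these data known. Alternatives were other scalings, DESeq2 1.42.0, no filter, only the groups compared, a replicate block and each library left out. The words searched in promoters were matched on both strands.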

Additional observations from a re-analysis of the deposited data

Results flagged for a closer look

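Bid drew attention because its difference from control was not alike in the 2 mutants. Against control its log2 fold change was 0.02 in Tcf1-deficient and 1.09 in p45-deficient cells. The test of that difference is the comparison of the mutants, at −1.07 on the log2 scale (SE 0.17, adjusted p = 0.0136 by edgeR), and both Tcf1-deficient libraries lay below both p45-deficient libraries. Bid was picked by its call in this same test, which is therefore no separate support. Over all tested genes 10.4% were called in that comparison. Without p45-deficient replicate 1 the adjusted p was 0.0582 and without p45-deficient replicate 2 it was 0.102, while the value stayed between −1.23 and −0.91 in the alternatives run.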

How the results depend on the processing

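Over 13 alternatives for each of 10 members in 3 comparisons, 324 fold changes kept direction and call, 17 passed the threshold only in the alternative, 15 lost it and 34 changed sign. With 2 libraries a group the calls rest on few degrees of freedom, and Bbc3, at 115 to 315 counts, has the least depth. Where not stated otherwise, the cause of a difference between settings was not tested.

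Among all tested genes, 1096 were higher and 977 lower in p45-deficient against control cells. Library totals gave 721 and 1281, which moves the balance to the lower side, upper-quartile scaling 820 and 1175, no filter 986 and 1273, DESeq2 1435 and 1634, and a fit of these groups alone 1911 and 1996. The median over all genes was 0.046 with TMM and −0.06 with library totals. In Tcf1-deficient against control cells the count of 0 became 79 higher and 66 lower with DESeq2, with 1 member lower, and 20 and 13 with no filter. In Tcf1-deficient against p45-deficient cells, 654 higher and 694 lower became 1375 and 1176 with DESeq2, 744 and 483 with library totals and 293 and 195 with these groups alone. There the members called higher, 0 in the main test, were 3 with DESeq2 (Bcl2, Bcl2l2 and Mcl1) and 1 with library totals, upper-quartile scaling, no filter or these groups alone.

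Libraries with the same number did not deviate together over genes (r of −0.036, −0.055 and −0.04). Each group gives a single such difference, so these values cannot settle whether the numbers mark pairs, and the labels do not say. With a replicate block, p45-deficient against control gave 846 higher and 767 lower genes and Tcf1-deficient against p45-deficient 466 and 454, and no member call changed.

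With each library left out, all genes called in p45-deficient against control cells ranged over 117 to 2226 higher and 141 to 1990 lower, and members over 0 to 2 and 0 to 3. In Tcf1-deficient against control cells these ranges were 0 to 669 and 0 to 225, and 0 to 1 members lower. In Tcf1-deficient against p45-deficient cells they were 53 to 1647 and 52 to 1790, with 0 to 2 members in each direction. Without Tcf1-deficient replicate 2 the call of Bak1 passed in p45-deficient against control (adjusted p = 0.0481) and in Tcf1-deficient against p45-deficient cells (adjusted p = 0.0357). Without Tcf1-deficient replicate 1 the Bcl2l1 value in Tcf1-deficient against p45-deficient cells was −0.668 (adjusted p = 0.0304).

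The changes of sign were in uncalled values. Bcl2l11 in p45-deficient against control cells was −0.019 with RLE, −0.073 with library totals, −0.043 with upper-quartile scaling, −0.018 with DESeq2, −0.03 with no filter and −0.025 with these groups alone. Bcl2l1 in Tcf1-deficient against control cells was −0.006 with RLE and DESeq2, −0.047 with library totals, −0.034 with upper-quartile scaling, −0.005 with no filter and −0.039 with the replicate block. Bid there was −0.033 with library totals and −0.021 with upper-quartile scaling, and Bcl2l11 was 0.013 with the replicate block. With libraries left out, p45-deficient against control values ranged over −0.537 to 0.132 for Bcl2 and −0.469 to 0.616 for Bcl2l11. Tcf1-deficient against control values ranged over −0.518 to 0.38 for Bcl2l1, −0.488 to 0.597 for Bcl2l11, −0.002 to 0.676 for Mcl1, −0.133 to 0.179 for Bid, −0.031 to 0.368 for Bax and −0.126 to 0.018 for Bak1. Tcf1-deficient against p45-deficient values ranged over −0.668 to 0.173 for Bcl2l1, −0.174 to 0.063 for Bcl2l11, −0.117 to 0.317 for Bmf and −0.332 to 0.009 for Bax.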
